A study of Mus musculus with 64 samples.

Results

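The genes described are 10 genes of transforming growth factor beta (TGF-beta) and activin signalling, chosen by symbol from the 20637 genes of the deposited table and all 10 present in it. They are the ligand genes Tgfb1, Tgfb2 and Tgfb3, the receptor genes Tgfbr1, Tgfbr2 and Tgfbr3, the latent TGF-beta binding protein genes Ltbp1 and Ltbp2, and the activin subunit genes Inhba and Inhbb. The study sequenced RNA of 4 populations of heart cells from CD1 mice, an outbred strain. Cells were collected 3 days after an operation at postnatal day 56 (P56, adult) or day 1 (P1, neonatal). The operation was a myocardial infarction (MI), made in adults by permanent ligation of the left descending coronary artery, or a sham operation with the same steps but no infarction. Each population had a P56 MI, a P56 sham, a P1 MI and a P1 sham group of 4 libraries, which made 16 groups and 64 libraries. Cardiomyocytes were the dense fraction of a Percoll gradient and were not sorted. Fibroblasts (CD90+/CD45-/CD31-), leukocytes (CD45+) and endothelial cells (CD31+/CD45-) were sorted from the lighter fraction. P56 animals were males whose hearts were perfused with enzyme, whereas P1 ventricles were cut up and stirred with enzyme in pools of 6, with no sex given, so age, sex and isolation cannot be told apart. Whether replicate libraries came from separate animals or pools is not in the labels. The spread behind each p-value is therefore that of the libraries and may be technical. In bulk samples such as these, fewer cells of a type and less RNA per cell cannot be told apart.

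TGF-beta is secreted as a latent dimer held by its own propeptide, and latent TGF-beta binding proteins tether that complex to the extracellular matrix until integrins, proteases or thrombospondin release the ligand. Released ligand binds the type II receptor kinase, which recruits the type I receptor, and the pair phosphorylates SMAD2 and SMAD3, which with SMAD4 drive genes of the matrix, of contraction and of feedback. Activins, dimers of inhibin beta subunits, reach the same SMADs through their own receptors. In the heart the pathway is best known for turning fibroblasts into contractile, collagen-making myofibroblasts after injury.

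The genes lie on 8 chromosomes, and their coordinates are given as gene spans on GRCm38, from the annotation of the deposited table's identifiers. Tgfb1 (ENSMUSG00000002603) spans chr7:25687002-25705077 on the plus strand, Tgfb2 (ENSMUSG00000039239) chr1:186622792-186705989 on the minus strand and Tgfb3 (ENSMUSG00000021253) chr12:86056744-86079041 on the minus strand. Ltbp1 (ENSMUSG00000001870) spans chr17:75005568-75392512 on the plus strand and Ltbp2 (ENSMUSG00000002020) chr12:84783212-84876532 on the minus strand. Tgfbr1 (ENSMUSG00000007613) spans chr4:47353222-47414931 on the plus strand, Tgfbr2 (ENSMUSG00000032440) chr9:116087698-116175363 on the minus strand and Tgfbr3 (ENSMUSG00000029287) chr5:107106570-107289629 on the minus strand. Inhba (ENSMUSG00000041324) spans chr13:16011851-16027211 on the plus strand and Inhbb (ENSMUSG00000037035) chr1:119415465-119422248 on the minus strand. All 10 are protein coding. Tgfb3 overlaps Ttll5 on the opposite strand (25.7 CPM as the mean of 64 libraries), and the sources used here do not give the strand setting of the counting, so the values of Tgfb3 could include reads of Ttll5. The other overlaps were with predicted genes under 1 CPM.

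RefSeq promoter windows (GRCm38.p6, 250 bases before to 50 after the gene start) matched 8 of the 10 genes, with 10 windows because Ltbp1 and Tgfbr1 had a second start. Those shown belong to the genes whose changes the results turn on, Ltbp2, Inhbb and Inhba, and to Ltbp1, whose upstream window held the rarest motif found. Capitals mark a GC box (GGGCGG or its reverse complement) in Ltbp2 and Inhbb and a cyclic AMP response element (TGACGTCA) in Ltbp1.
Ltbp2, chr12:84876442-84876741, minus strand: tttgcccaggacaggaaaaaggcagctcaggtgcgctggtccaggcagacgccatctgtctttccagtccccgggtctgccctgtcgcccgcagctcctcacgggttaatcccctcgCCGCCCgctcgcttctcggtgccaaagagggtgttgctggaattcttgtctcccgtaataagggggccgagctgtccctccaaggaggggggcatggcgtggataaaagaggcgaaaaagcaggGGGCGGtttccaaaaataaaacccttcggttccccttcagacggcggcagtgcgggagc
Inhbb, chr1:119422199-119422498, minus strand: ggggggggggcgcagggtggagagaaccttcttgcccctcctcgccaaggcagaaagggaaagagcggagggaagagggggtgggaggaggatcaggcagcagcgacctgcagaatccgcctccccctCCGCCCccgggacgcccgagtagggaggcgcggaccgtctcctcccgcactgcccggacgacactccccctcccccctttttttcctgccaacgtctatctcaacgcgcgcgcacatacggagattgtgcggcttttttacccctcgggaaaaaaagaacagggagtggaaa
Inhba, chr13:16011601-16011900, plus strand: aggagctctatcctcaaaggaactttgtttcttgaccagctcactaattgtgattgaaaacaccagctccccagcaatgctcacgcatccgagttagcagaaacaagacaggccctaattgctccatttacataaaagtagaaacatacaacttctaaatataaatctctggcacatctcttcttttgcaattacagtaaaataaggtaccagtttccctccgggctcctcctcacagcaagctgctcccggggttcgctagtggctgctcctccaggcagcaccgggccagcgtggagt
Ltbp1, chr17:75005279-75005578, plus strand: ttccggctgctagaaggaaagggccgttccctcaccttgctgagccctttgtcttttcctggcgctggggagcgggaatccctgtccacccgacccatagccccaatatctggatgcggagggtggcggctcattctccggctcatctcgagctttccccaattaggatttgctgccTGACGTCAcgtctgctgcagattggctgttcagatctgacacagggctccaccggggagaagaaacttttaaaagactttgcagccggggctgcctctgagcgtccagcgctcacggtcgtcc
On both strands, GGGCGG stood in 4 of the 10 windows (Ltbp2, Inhbb, Tgfb1 and the first Tgfbr1 start) and in 35.7% of 32851 promoter windows. TGACGTCA stood in 1 of the 10 and in 1.79% of all. The AP-1 site TGANTCA (7.81% of all) and the SMAD palindrome GTCTAGAC (0.213% of all) stood in 0 of the 10. A match is a description of these letters and not a site of binding. The GC content was 61% for Ltbp2, 64.3% for Inhbb, 47.7% for Inhba and 58.7% for the upstream Ltbp1 window, and the median of all windows was 52.7%. Inhba and Inhbb had 7 and 23 CG pairs in windows of the same length, and the median of all windows was 7.

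The deposited signal, which the authors named CPM, resolved into 9.59 to 27.5 M whole reads a library (M, 1e+06 reads, with a median of 20.6 M), with 1 read worth 0.0340 to 0.136 CPM. All 10 genes passed the filter of 1 CPM in 4 libraries in every fit. The defining markers stood where the labels put them. The summed CPM of 14 cardiomyocyte markers was 45784 to 217370 in cardiomyocyte libraries and that of 13 fibroblast markers 30384 to 79609 in fibroblast libraries. That of 12 leukocyte markers was 1632 to 6113 in leukocyte libraries and that of 14 endothelial markers 10118 to 15028 in endothelial libraries. The leukocyte groups also held RNA of other cells. Cardiomyocyte markers summed to 5316 to 19476 CPM in P56 MI leukocytes and 76422 to 208860 CPM in P56 sham leukocytes, the highest close to the 185740 to 217370 CPM of P56 sham cardiomyocytes. Endothelial markers summed to 547 to 1033 CPM in P1 MI leukocytes and 4286 to 5131 CPM in P1 sham leukocytes. Of the 12 leukocyte markers 7 were under 0.409 CPM in every P1 sham fibroblast library, which is the value of 3 reads in the shallowest library. In 7 libraries 18S ribosomal RNA took over 5% of the signal. Libraries 3 of both P56 cardiomyocyte groups and libraries 4 of both P1 endothelial groups stood apart. They were picked in earlier work on these data because exchanging their MI and sham labels raised the number of calls, a choice that itself favours more calls without them. Without P56 cardiomyocyte MI and sham libraries 3, limma called 4592 genes after infarction in adult cardiomyocytes, against 1498 with them. Without P1 endothelial MI and sham libraries 4 it called 449 genes after neonatal infarction in endothelial cells, against 34 with them. Calls on the 10 genes that changed without these 4 libraries are given with and without them.

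**Figure D1:**
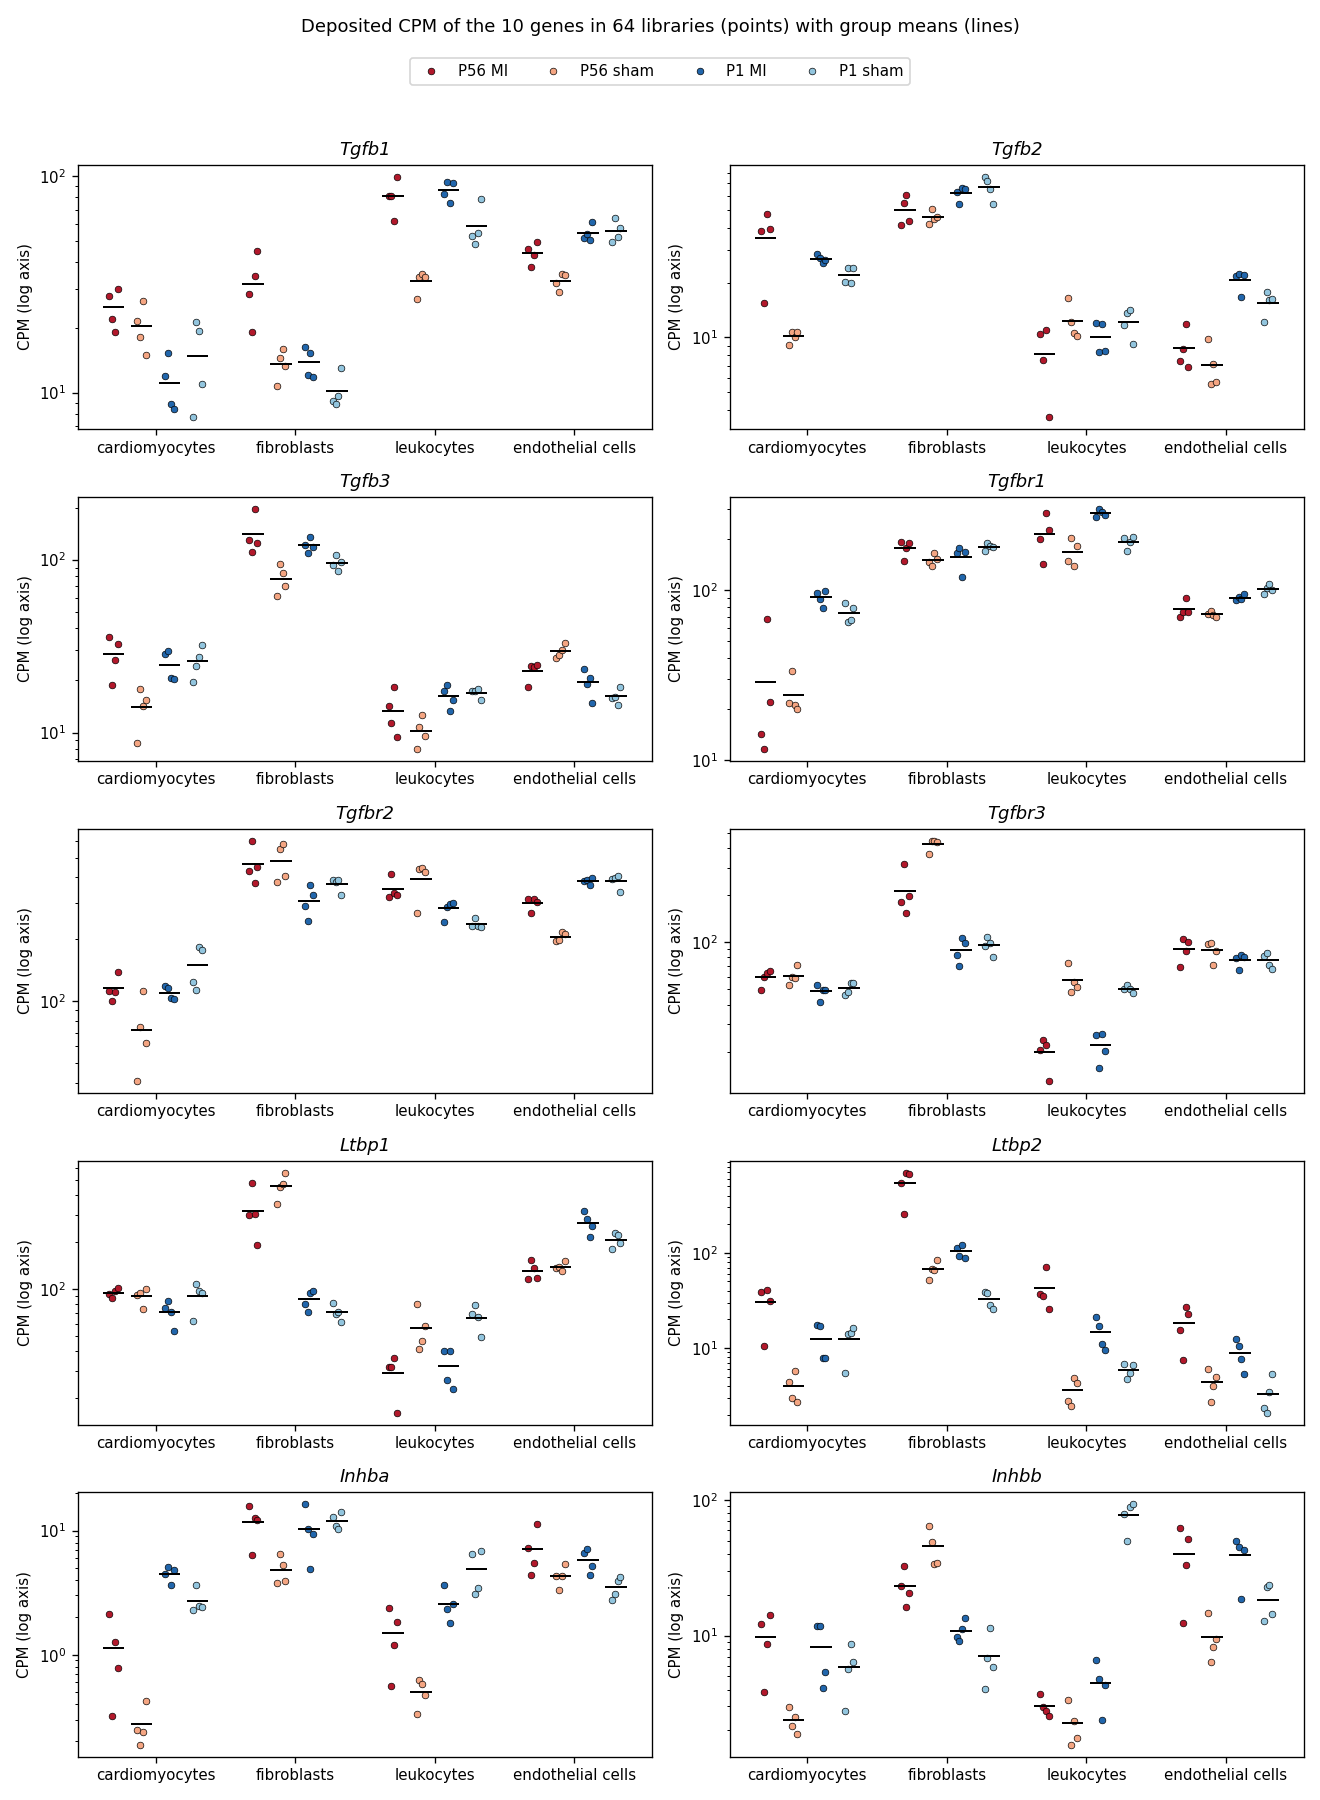
Deposited CPM (log axis) of each gene in the 64 libraries, by population and group, with lines at the group means. Ltbp2 is highest in P56 MI fibroblasts (256 to 697 CPM) and Inhbb stands at 50.0 to 92.5 CPM in P1 sham leukocytes, above its other leukocyte groups.

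The first question was which populations carried the RNA of each gene in sham hearts. In P56 sham hearts fibroblasts had the highest mean of 8 of the 10 genes, and in P1 sham hearts of 5. The fits compared 6 pairs of populations at each age over the 32 sham libraries with limma on log2(CPM + 0.5), and a gene was called at a Benjamini-Hochberg adjusted p under 0.05 over 17618 genes. At P56 cardiomyocytes differed from fibroblasts in 10 of the 10 genes (1 higher, 9 lower), where 82.4% of all genes were called. The count was 5 of 10 for cardiomyocytes against leukocytes (78.4% of all genes called) and 9 of 10 for cardiomyocytes against endothelial cells (82.0%). Fibroblasts differed from leukocytes in 8 of 10 genes, 7 of them higher (67.9% of all genes called), and from endothelial cells in 9 of 10, 8 of them higher (52.9%). Leukocytes differed from endothelial cells in 8 of 10 (65.4%).

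At P1 cardiomyocytes differed from fibroblasts in 7 of 10 genes, all 7 lower (69.1% of all genes called), from leukocytes in 9 of 10 (66.4%) and from endothelial cells in 9 of 10 (71.2%). Fibroblasts differed from leukocytes in 8 of 10 (63.9%) and from endothelial cells in 9 of 10 (55.4%), in each case with 6 higher. Leukocytes differed from endothelial cells in 6 of 10 (52.6%). The median log2 difference of the 10 genes between cardiomyocytes and fibroblasts was -2.71 at P56, where the median of all genes was -0.18, and -1.33 at P1, where it was -0.06. Between fibroblasts and leukocytes it was 2.63 at P56 and 0.78 at P1, beside 0.02 and -0.01 over all genes.

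Tgfb1, the ligand gene made widely by immune and endothelial cells, averaged 20.2 ± 5.02 CPM in cardiomyocytes, 13.6 ± 2.22 CPM in fibroblasts, 32.7 ± 3.78 CPM in leukocytes and 32.9 ± 2.87 in endothelial cells of P56 sham hearts (SD, n = 4 libraries in this and all following group means). In P1 sham hearts the averages were 14.8 ± 6.45, 10.2 ± 1.88, 58.9 ± 13.5 and 56.1 ± 6.37 CPM in the same order of populations. Leukocytes and endothelial cells were the top pair at both ages and did not differ beyond their spread (adjusted p = 0.961 at P56 and 0.858 at P1), while fibroblasts were lowest. The step between cardiomyocytes and fibroblasts was called at P56 (adjusted p = 0.0218) but not at P1 (0.0764), and the P56 call was lost without cardiomyocyte library 1 or 3 or fibroblast library 1 (adjusted p = 0.0506, 0.103 and 0.0831), and without both P56 libraries 3 (0.109). At P1 it was called with edgeR (adjusted p = 0.029) and without cardiomyocyte library 1 or 4 or fibroblast library 4 (adjusted p = 0.00304, 0.043 and 0.0366).

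Tgfb2, the ligand gene of the developing heart valves and mesenchyme, averaged 10.1 ± 0.796 CPM in cardiomyocytes, 45.7 ± 3.62 CPM in fibroblasts, 12.3 ± 2.86 CPM in leukocytes and 7.03 ± 1.94 in endothelial cells of P56 sham hearts. The P1 sham averages were 22.0 ± 2.38 CPM in cardiomyocytes, 66.7 ± 9.61 CPM in fibroblasts, 12.1 ± 2.21 CPM in leukocytes and 15.5 ± 2.40 in endothelial cells. Fibroblasts stood above every other population at both ages. Leukocytes and cardiomyocytes at P56 (adjusted p = 0.157) and endothelial cells and leukocytes at P1 (0.0744) did not differ beyond their spread, though the P1 step was called without leukocyte library 3 or endothelial library 1 (adjusted p = 0.0481 and 0.027).

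Tgfb3, the third ligand gene, averaged 14.1 ± 3.90 CPM in cardiomyocytes, 77.7 ± 14.3 CPM in fibroblasts, 10.3 ± 1.95 CPM in leukocytes and 29.5 ± 2.78 in endothelial cells of P56 sham hearts. Its P1 sham averages were 25.8 ± 5.31 CPM in cardiomyocytes, 95.7 ± 8.71 CPM in fibroblasts, 17.0 ± 1.04 CPM in leukocytes and 16.2 ± 1.63 in endothelial cells. Fibroblasts were again the highest at both ages. All neighbours in the order were called at P56, though the step between cardiomyocytes and leukocytes (adjusted p = 0.0256) was lost without cardiomyocyte library 2, 3 or 4 or leukocyte library 1 or 4 (adjusted p of 0.0524 to 0.132), and without both P56 cardiomyocyte libraries 3 (0.0534). Its log2 difference was 0.62 without cardiomyocyte library 1, against 0.41 with it. At P1 leukocytes and endothelial cells did not differ beyond their spread (adjusted p = 0.748).

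Per kilobase of transcript, the scale on which genes can be compared, the 3 ligand genes divided differently between populations. Tgfb1 made up 16.4 ± 1.35% of the summed TGF-beta ligand CPM per kb in P56 sham fibroblasts and 10.2 ± 2.17% in P1 sham fibroblasts, where Tgfb3 held 59.9 ± 2.22% and 61.4 ± 2.41%. In leukocytes the share of Tgfb1 was 86.5 ± 5.78% after MI and 73.3 ± 3.15% after sham at P56, and 85.4 ± 1.59% and 78.0 ± 4.83% at P1. Tgfb1 was thus the main ligand transcript of leukocytes and Tgfb3 that of fibroblasts in every group of those populations.

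**Figure D2:**
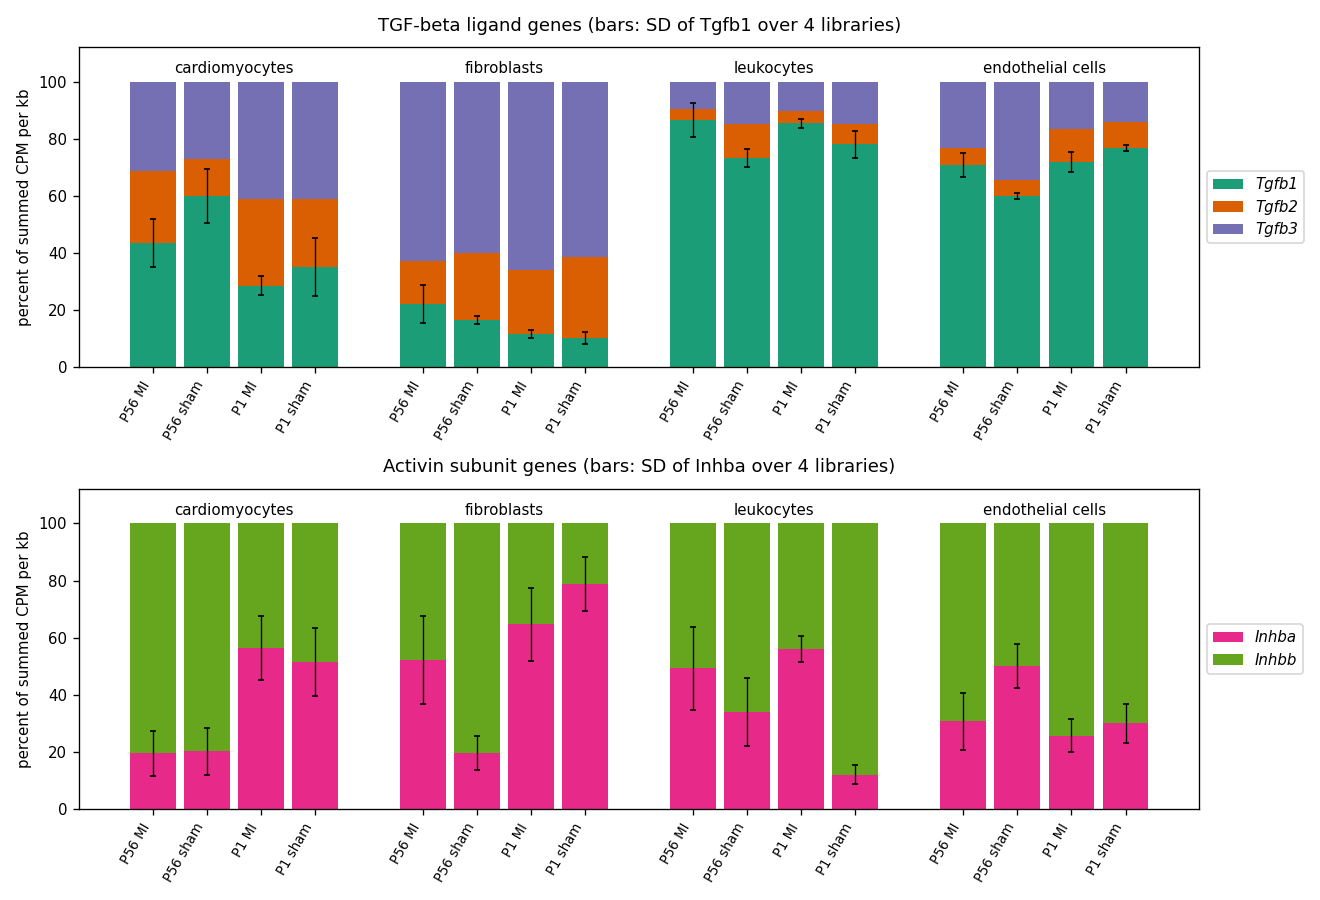
Share of each ligand gene in the summed CPM per kb of the TGF-beta genes (upper) and of the activin subunit genes (lower) in the 16 groups, with the SD over 4 libraries for Tgfb1 and Inhba. Tgfb3 holds 59.9 to 65.9% in the 4 fibroblast groups and Tgfb1 73.3 to 86.5% in the 4 leukocyte groups.

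Ltbp1, whose protein binds the latent TGF-beta complex covalently, averaged 90.1 ± 11.4 CPM in cardiomyocytes, 458 ± 85.9 CPM in fibroblasts, 56.5 ± 17.2 CPM in leukocytes and 139 ± 8.71 in endothelial cells of P56 sham hearts. All neighbours in the order of these levels were called. In P1 sham hearts it averaged 90.5 ± 19.8 CPM in cardiomyocytes, 70.8 ± 8.25 CPM in fibroblasts, 65.5 ± 12.3 CPM in leukocytes and 208 ± 21.9 in endothelial cells. The top population was therefore the fibroblasts at P56 and the endothelial cells at P1. Cardiomyocytes and fibroblasts (adjusted p = 0.094), and fibroblasts and leukocytes (0.554), did not differ beyond their spread at P1, though cardiomyocytes were called above fibroblasts without cardiomyocyte library 1 (0.50, adjusted p = 0.0126). Cardiomyocytes were above leukocytes at P1 (log2 fold change 0.45 ± 0.17, adjusted p = 0.0237), but not without cardiomyocyte library 2, 3 or 4 or leukocyte library 4 (adjusted p of 0.0552 to 0.123), nor without the libraries over 5% 18S (0.23, adjusted p = 0.305).

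Ltbp2, a relative found on fibrillin microfibrils that does not bind latent TGF-beta itself, was highest in fibroblasts of P56 sham hearts, with 67.2 ± 13.4 CPM there, against 3.95 ± 1.37 in cardiomyocytes, 3.60 ± 1.14 CPM in leukocytes and 4.41 ± 1.39 in endothelial cells. The lower 3 populations did not differ beyond their spread (adjusted p = 0.653 for cardiomyocytes against endothelial cells and 0.729 for cardiomyocytes against leukocytes). In P1 sham hearts it averaged 12.5 ± 4.83 CPM in cardiomyocytes, 32.6 ± 6.53 CPM in fibroblasts, 5.91 ± 0.951 CPM in leukocytes and 3.32 ± 1.498 in endothelial cells, and all 6 pairs of populations were called. The step from leukocytes to endothelial cells was lost without endothelial library 1 or 2 (adjusted p = 0.0642 and 0.0761).

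Tgfbr1, the type I receptor that phosphorylates SMAD2 and SMAD3, averaged 24.0 ± 6.35 CPM in cardiomyocytes, 151 ± 11.2 CPM in fibroblasts, 169 ± 30.0 CPM in leukocytes and 72.4 ± 2.14 in endothelial cells of P56 sham hearts. In P1 sham hearts it averaged 73.4 ± 9.06, 181 ± 7.80, 193 ± 16.7 and 102 ± 5.64 CPM in the same populations. Leukocytes and fibroblasts were the top pair at both ages and did not differ beyond their spread (adjusted p = 0.304 at P56 and 0.541 at P1), and cardiomyocytes were the lowest. Tgfbr2, the type II receptor that first binds the ligand, averaged 72.5 ± 29.8 CPM in cardiomyocytes, 480.0 ± 102 CPM in fibroblasts, 394 ± 84.6 CPM in leukocytes and 206 ± 10.1 in endothelial cells at P56. At P1 it averaged 149 ± 36.2, 373 ± 29.1, 237 ± 10.8 and 383 ± 28.9 CPM in the same populations. Fibroblasts and leukocytes at P56 (adjusted p = 0.208) and fibroblasts and endothelial cells at P1 (0.885) were its top pairs and did not differ beyond their spread. Per kilobase Tgfbr2 was the most abundant of the 10 genes in each of the 16 groups, with 15.2, 100.3, 82.4 and 43.0 CPM per kb in cardiomyocytes, fibroblasts, leukocytes and endothelial cells of P56 sham hearts.

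Tgfbr3, the co-receptor betaglycan that presents TGF-beta2 and binds inhibin, averaged 61.2 ± 7.77 CPM in cardiomyocytes, 422 ± 39.1 CPM in fibroblasts, 57.3 ± 11.2 CPM in leukocytes and 89.2 ± 12.7 in endothelial cells of P56 sham hearts. The P1 sham levels were closer together, at 51.0 ± 4.48, 95.6 ± 11.7, 50.3 ± 2.41 and 76.6 ± 8.39 CPM in the same populations. Fibroblasts were highest at both ages, but at P1 their difference from endothelial cells (adjusted p = 0.0312) was lost without fibroblast library 1, 2 or 3 or endothelial library 3 or 4 (adjusted p of 0.0529 to 0.115), and without both P1 endothelial libraries 4 (0.106). Cardiomyocytes and leukocytes were the lowest and did not differ beyond their spread at either age (adjusted p = 0.445 at P56 and 0.918 at P1).

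Inhba, which encodes the subunit of activin A, was the gene of lowest signal per kb in P56 sham cardiomyocytes, where 3 of 4 libraries were under the value of 3 reads. It averaged 0.274 ± 0.101 CPM in those cardiomyocytes, 4.84 ± 1.28 CPM in fibroblasts, 0.504 ± 0.129 CPM in leukocytes and 4.33 ± 0.815 in endothelial cells at P56. At P1 it averaged 2.70 ± 0.629, 12.0 ± 1.78, 4.94 ± 1.98 and 3.49 ± 0.681 CPM in the same populations. Fibroblasts and endothelial cells at P56 did not differ beyond their spread (adjusted p = 0.636), nor did leukocytes and cardiomyocytes (0.103). At P1 fibroblasts stood above the rest, whose neighbours did not differ beyond their spread (adjusted p = 0.121 for leukocytes against endothelial cells and 0.169 for cardiomyocytes against endothelial cells). Leukocytes were called above endothelial cells at P1 without leukocyte library 2 (0.57, adjusted p = 0.0268), and above cardiomyocytes at P56 at a pseudocount of 0.1 (adjusted p = 0.013).

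Inhbb, the subunit gene of activin B, averaged 2.39 ± 0.468 CPM in cardiomyocytes, 45.4 ± 14.7 CPM in fibroblasts, 2.26 ± 0.800 CPM in leukocytes and 9.71 ± 3.58 in endothelial cells of P56 sham hearts. In P1 sham hearts the order was another, with 5.85 ± 2.42 CPM in cardiomyocytes, 7.04 ± 3.12 CPM in fibroblasts, 77.6 ± 19.3 CPM in leukocytes and 18.4 ± 5.55 in endothelial cells. Leukocytes were thus lowest at P56, with cardiomyocytes not different beyond the spread (adjusted p = 0.786), and highest at P1 (adjusted p = 1.11e-06 against endothelial cells). The P56 sham leukocyte libraries also held cardiomyocyte markers, at 6.92 to 307% of their cardiomyocyte level. Inhbb stood at 94.7% of its own there, and Tgfb2, Tgfbr3, Ltbp2 and Inhba, also not called between these populations, at 122, 93.7, 91.1 and 184%. The part of cardiomyocyte RNA in these leukocyte levels was not tested. Of the summed activin subunit CPM per kb, Inhba held 19.7 ± 6.08% in P56 sham fibroblasts and 78.8 ± 9.29% in P1 sham fibroblasts, so the main subunit transcript of fibroblasts was Inhbb in the adult and Inhba in the neonate.

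The second question was how the genes differed between adult and neonatal sham hearts. In cardiomyocytes 0 of the 10 genes were called higher and 7 lower at P56, where 33.3% and 37.0% of all genes were called higher and lower. In fibroblasts 4 were higher and 2 lower (34.8% and 32.2% of all genes), in leukocytes 1 higher and 4 lower (32.5% and 34.5%), and in endothelial cells 1 higher and 5 lower (33.6% and 29.3%). The median log2 fold change of the 10 genes in the 4 populations, in that order, was -1.07, 0.38, -0.46 and -0.53, beside -0.09, 0.03, -0.01 and 0.05 over all genes. All fold changes are of log2(CPM + 0.5), and the 0.5 shrinks those of genes at low CPM. Where groups are said not to overlap, here and below, this describes the libraries of the named genes. The share of all genes without overlap is not given beside it.

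Fibroblasts carried the largest increases with age. Ltbp1 stood at 349.6, 452, 472 and 559 CPM in the 4 P56 sham fibroblast libraries, against 81.3, 68.7, 71.6 and 61.4 CPM in the 4 P1 sham libraries (log2 fold change 2.67 ± 0.21, adjusted p = 1.02e-08). The betaglycan gene Tgfbr3 stood at 364, 445, 442 and 438 CPM in P56 sham fibroblasts, against 94.9, 109, 98.2 and 80.5 CPM in P1 sham fibroblasts (log2 fold change 2.14 ± 0.18, adjusted p = 2.54e-08). Inhbb had 64.7, 49.1, 33.6 and 34.3 CPM at P56 and 4.05, 6.88, 11.4 and 5.86 CPM at P1 (log2 fold change 2.64 ± 0.27, adjusted p = 2.60e-07). In all 3 genes every adult library lay above every neonatal one. Ltbp2 was also higher (log2 fold change 1.03 ± 0.25, adjusted p = 0.0017). Inhba (log2 fold change -1.25 ± 0.30, adjusted p = 0.0013) and Tgfb2 (log2 fold change -0.53 ± 0.13, adjusted p = 0.0015) were lower. These 3 did not overlap between ages either. The 4 remaining genes were not called, but each passed without 1 library. Tgfb1 passed without P1 library 4 (0.52, adjusted p = 0.046), Tgfb3 without P56 library 2 (-0.41, adjusted p = 0.035), Tgfbr1 without P56 library 3 (-0.31, adjusted p = 0.0448) and Tgfbr2 without P56 library 1 (0.45, adjusted p = 0.0328). Over all libraries Tgfb3 and Tgfbr1 were also called lower with edgeR (adjusted p = 0.0398 and 0.0262) and with median-of-ratios scaling (0.0417 and 0.0334). The summed fibroblast markers were 30384 to 41727 CPM in P56 sham fibroblasts and 58884 to 79609 CPM in P1 sham fibroblasts, lower in the adult. Cardiomyocyte markers summed to 2867 to 6048 CPM at P56 and 293 to 523 CPM at P1 in the same groups, and the part of both in these differences was not tested.

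Cardiomyocytes had lower values with age for Inhba, which stood at 0.248, 0.189, 0.238 and 0.421 CPM in P56 sham libraries, against 2.28, 3.63, 2.45 and 2.43 CPM in P1 sham libraries (log2 fold change -2.04 ± 0.27, adjusted p = 2.67e-06, and -3.25 with edgeR on recovered reads). Tgfbr1 stood at 21.7, 33.5, 21.1 and 19.8 CPM, against 83.9, 65.2, 66.6 and 78.1 CPM (log2 fold change -1.62 ± 0.36, adjusted p = 0.00056), and in neither gene did the ages overlap. The fold of Inhba depends on the pseudocount, since 3 of the 4 adult libraries were under the value of 3 reads. Lower values were also called for Ltbp2 (log2 fold change -1.49 ± 0.41, adjusted p = 0.00332), Tgfbr2 (log2 fold change -1.09 ± 0.24, adjusted p = 0.000455) and Tgfb2 (log2 fold change -1.08 ± 0.25, adjusted p = 0.000718). So they were for Inhbb (log2 fold change -1.06 ± 0.39, adjusted p = 0.0202) and Tgfb3 (log2 fold change -0.87 ± 0.24, adjusted p = 0.00332), and the ages overlapped in Ltbp2 and Inhbb. The call of Inhbb was lost without P56 sham library 4 or P1 sham library 3 (adjusted p = 0.0514 and 0.0736), and Tgfb1 was called higher without P1 sham library 2 (0.72, adjusted p = 0.0341). Markers of other cells moved the same way in this unsorted fraction. Fibroblast markers summed to 372 to 1115 CPM in P56 sham cardiomyocytes and 2544 to 6391 CPM in P1 sham cardiomyocytes. Endothelial markers summed to 1283 to 2167 and 2764 to 4280 CPM, and leukocyte markers to 17.4 to 78.4 and 106 to 245 CPM. Their part in the lower values was not tested.

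Leukocytes showed the widest difference with age of any population in Inhbb, at 3.36, 1.57, 2.35 and 1.77 CPM in P56 sham libraries, against 78.9, 50.0, 89.0 and 92.5 CPM in P1 sham libraries (log2 fold change -4.83 ± 0.26, adjusted p = 3.98e-10). The ages were far from overlapping. Inhba stood at 0.336, 0.629, 0.576 and 0.474 CPM at P56 and 6.46, 3.06, 3.41 and 6.84 CPM at P1 (log2 fold change -2.37 ± 0.30, adjusted p = 3.55e-06), so both activin subunit genes were lower in adult leukocytes. Tgfb1 (log2 fold change -0.82 ± 0.16, adjusted p = 0.000215) and Tgfb3 (log2 fold change -0.72 ± 0.18, adjusted p = 0.00203) were lower. Tgfbr2 was higher (log2 fold change 0.71 ± 0.15, adjusted p = 0.000502), with no overlap in any of the 3. Ltbp2 (log2 fold change -0.68 ± 0.29, adjusted p = 0.0506) was called lower without P1 library 2 or P56 library 3 or 4 (adjusted p of 0.0309 to 0.0475). The marker sums of other cells differed between these groups too. Cardiomyocyte markers summed to 76422 to 208860 CPM in P56 sham leukocytes and 19661 to 25614 CPM in P1 sham leukocytes, and endothelial markers to 490 to 717 and 4286 to 5131 CPM. Neutrophil markers summed to 43.6 to 115 CPM at P56 and 1748 to 3517 CPM at P1, and erythroid markers to 4.31 to 39.0 and 529 to 787 CPM. The part of these sums in the differences with age was not tested.

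Endothelial cells had less RNA of both receptor kinases in the adult. Tgfbr2 stood at 196, 198, 216 and 212 CPM in P56 sham libraries, against 391, 396, 404 and 340.5 CPM in P1 sham libraries (log2 fold change -0.89 ± 0.07, adjusted p = 2.14e-08). Tgfbr1 averaged 72.4 ± 2.14 CPM at P56 and 102 ± 5.64 CPM at P1 (log2 fold change -0.49 ± 0.07, adjusted p = 2.05e-05). Tgfb2 (log2 fold change -1.11 ± 0.18, adjusted p = 5.99e-05), Tgfb1 (log2 fold change -0.76 ± 0.10, adjusted p = 4.33e-06) and Ltbp1 (log2 fold change -0.57 ± 0.11, adjusted p = 0.000349) were also lower. Tgfb3 alone was called higher in adult endothelial cells (log2 fold change 0.84 ± 0.13, adjusted p = 2.35e-05). In all 6 genes the ages did not overlap. Inhbb was called lower without P56 library 1 (-1.12, adjusted p = 0.0375), and Tgfbr3 higher without P56 library 3 (0.31, adjusted p = 0.0464). Endothelial markers summed to 12406 to 14585 CPM at P56 and 10118 to 12367 CPM at P1. Those of other cells differed more, with cardiomyocyte sums of 9300 to 21141 CPM at P56 and 686 to 2512 CPM at P1, mural cell sums of 3277 to 4399 and 1042 to 1189 CPM and erythroid sums of 11.026 to 122 and 375 to 438 CPM. Their part in these differences was not tested.

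**Figure D3:**
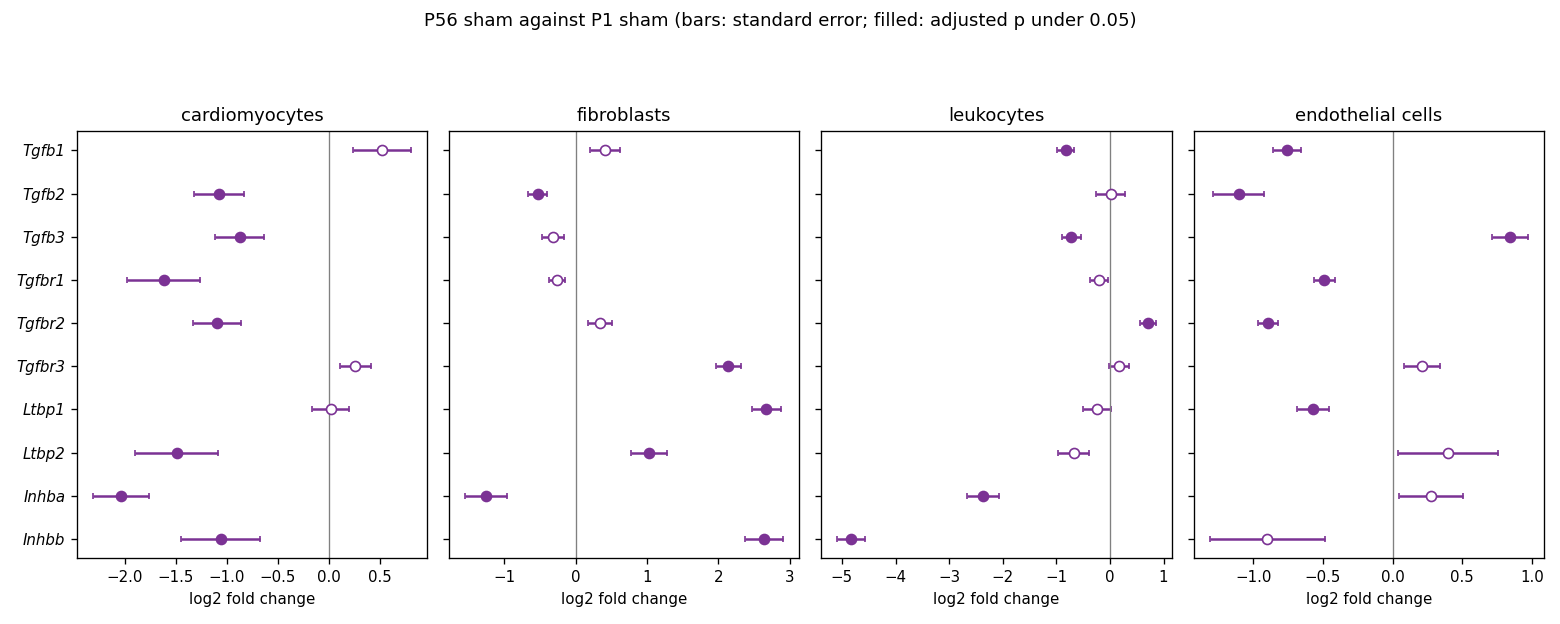
Log2 fold change of each gene, P56 sham over P1 sham, in each population, with bars of 1 standard error and filled points at an adjusted p under 0.05. Ltbp1, Inhbb and Tgfbr3 lie above 2 in fibroblasts and Inhbb lies near -4.83 in leukocytes.

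The third question was how the genes changed 3 days after infarction at each age. At P56, 5 of 10 genes were called higher and 0 lower in cardiomyocytes, where 8.66% and 1.03% of all genes were called higher and lower. In fibroblasts 4 rose and 3 fell (24.8% and 25.2% of all genes), in leukocytes 3 rose and 3 fell (30.7% and 28.8%), and in endothelial cells 4 rose and 1 fell (12.5% and 7.88%). The median log2 fold change of the 10 genes was 0.85, 0.17, 0.33 and 0.36 in cardiomyocytes, fibroblasts, leukocytes and endothelial cells, beside 0.08, -0.03, 0.02 and 0.02 over all genes.

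At P1, 0 of 10 genes were called in cardiomyocytes (0.285% of all genes higher and 0.0582% lower) and 0 of 10 in endothelial cells (0.0891% higher and 0.127% lower) by limma. At an unadjusted p under 0.05 the counts were 1 gene in cardiomyocytes (Inhba) and 6 in endothelial cells (Tgfb2, Tgfbr1, Ltbp1, Ltbp2, Inhba and Inhbb), and edgeR also called 0 in each. The shares of all genes given here are at the adjusted threshold, so they are no background for the unadjusted counts. In fibroblasts 1 gene rose and 0 fell (1.99% and 0.375% of all genes), and in leukocytes 3 rose and 4 fell (22.6% and 22.6%). The difference between the changes at P56 and P1, tested as an interaction, was called for 1 gene in cardiomyocytes (1.75% of all genes in either direction), 6 in fibroblasts (31.7%), 4 in leukocytes (45.2%) and for 1 in endothelial cells (5.41%). A gene called at one age only is not thereby shown to differ between ages, so the interaction is given where it was called.

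**Figure D4:**
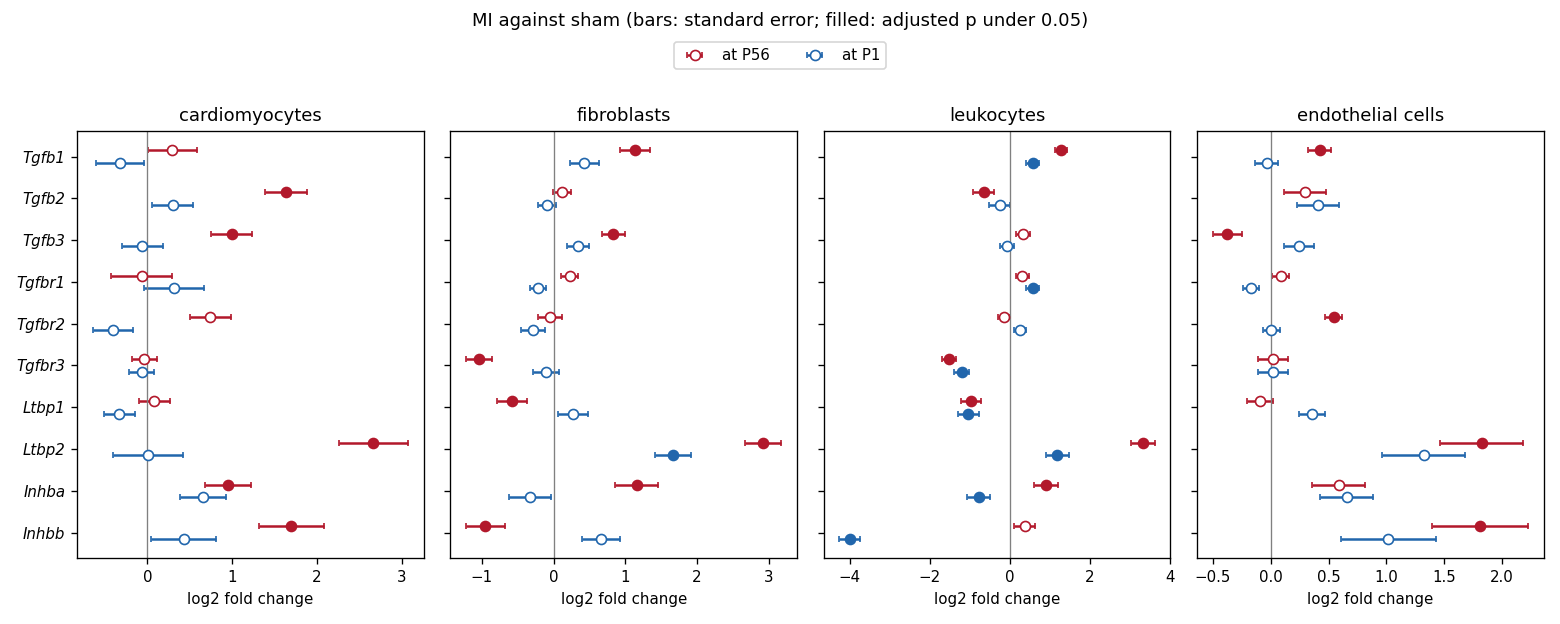
Log2 fold change of each gene, MI over sham, at P56 and P1 in each population, with bars of 1 standard error and filled points at an adjusted p under 0.05. Ltbp2 at P56 lies at 2.66, 2.93, 3.33 and 1.82 in cardiomyocytes, fibroblasts, leukocytes and endothelial cells, and Inhbb at P1 lies at -4.00 in leukocytes.

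Ltbp2 rose after adult infarction in all 4 populations and had the largest change of the 10 genes in fibroblasts. It stood at 544, 256, 697 and 681 CPM in P56 MI fibroblasts, against 51.5, 67.8, 65.4 and 84.2 CPM in P56 sham fibroblasts (log2 fold change 2.93 ± 0.25, adjusted p = 1.66e-07). In neonatal fibroblasts it stood at 113, 93.3, 122 and 88.9 CPM after MI, against 38.5, 37.9, 28.4 and 25.7 CPM after sham (log2 fold change 1.67 ± 0.25, adjusted p = 0.00246). The groups did not overlap at either age, and the adult change was the larger (difference between ages 1.26 ± 0.36, adjusted p = 0.0137). In leukocytes the values were 37.1, 35.1, 71.5 and 25.9 CPM after MI and 2.80, 2.48, 4.83 and 4.31 CPM after sham at P56 (log2 fold change 3.33 ± 0.29, adjusted p = 3.29e-07). At P1 they were 21.1, 16.9, 11.1 and 9.62 CPM after MI and 6.77, 4.77, 5.49 and 6.62 CPM after sham (log2 fold change 1.19 ± 0.29, adjusted p = 0.00353). Here too the groups stood apart at both ages and the adult change was the larger (difference 2.14 ± 0.41, adjusted p = 0.000706).

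In adult cardiomyocytes Ltbp2 stood at 38.9, 10.5, 40.4 and 30.9 CPM after MI, against 4.35, 3.02, 5.72 and 2.73 CPM after sham (log2 fold change 2.66 ± 0.41, adjusted p = 0.000307). Library 2 was the lowest of the MI group and still above every sham library. In neonatal cardiomyocytes it averaged 12.5 ± 5.44 CPM after MI and 12.5 ± 4.83 CPM after sham. The difference between ages (2.66 ± 0.58, adjusted p = 0.0211) was lost without P56 MI library 1 or 4, P56 sham library 4, P1 MI library 3 or 4, P1 sham library 3 or 4, or without the libraries over 5% 18S, at an adjusted p of 0.0509 to 0.061. In adult endothelial cells it stood at 15.3, 7.41, 27.0 and 22.8 CPM after MI and 5.99, 2.72, 3.97 and 4.96 CPM after sham (log2 fold change 1.82 ± 0.36, adjusted p = 0.00209), without overlap. In neonatal endothelial cells it averaged 8.94 ± 3.11 CPM after MI and 3.32 ± 1.498 CPM after sham (log2 fold change 1.32 ± 0.36, adjusted p = 0.124). It was called without sham library 4 (1.56, adjusted p = 0.0427) and without MI and sham libraries 4 (1.76, adjusted p = 0.0226).

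After adult MI the level of Ltbp2 outside fibroblasts was small against that of fibroblasts. In P56 MI hearts its mean in cardiomyocytes was 5.54% of its fibroblast mean, in leukocytes 7.79% and in endothelial cells 3.33%. The 13 fibroblast markers stood at 1.33 to 7.21%, 2.23 to 9.99% and 1.96 to 7.46% of their fibroblast level in those populations, so Ltbp2 lay within the range of the markers in each. Elsewhere it lay above that range in P1 MI leukocytes, at 14.1% where the markers stood at 2.66 to 12.1%. The same held in P1 sham cardiomyocytes (38.3%, markers 1.95 to 31.5%) and P56 sham cardiomyocytes (5.88%, markers 1.09 to 5.79%). In the remaining groups outside fibroblasts it lay within the range. The summed fibroblast markers were higher after adult MI, at 1563 to 3399 CPM in MI and 372 to 1115 CPM in sham cardiomyocytes, 2280 to 7183 and 558 to 1722 CPM in leukocytes and 1418 to 3049 and 982 to 1249 CPM in endothelial cells. Their part in the rise of Ltbp2 there was not tested. Fibroblasts themselves had marker sums of 51433 to 73086 CPM after MI and 30384 to 41727 CPM after sham. Cardiomyocyte markers in adult fibroblasts summed to 248 to 1068 CPM after MI and 2867 to 6048 CPM after sham, and the part of either sum in the adult fibroblast changes of the members was not tested.

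**Figure D5:**
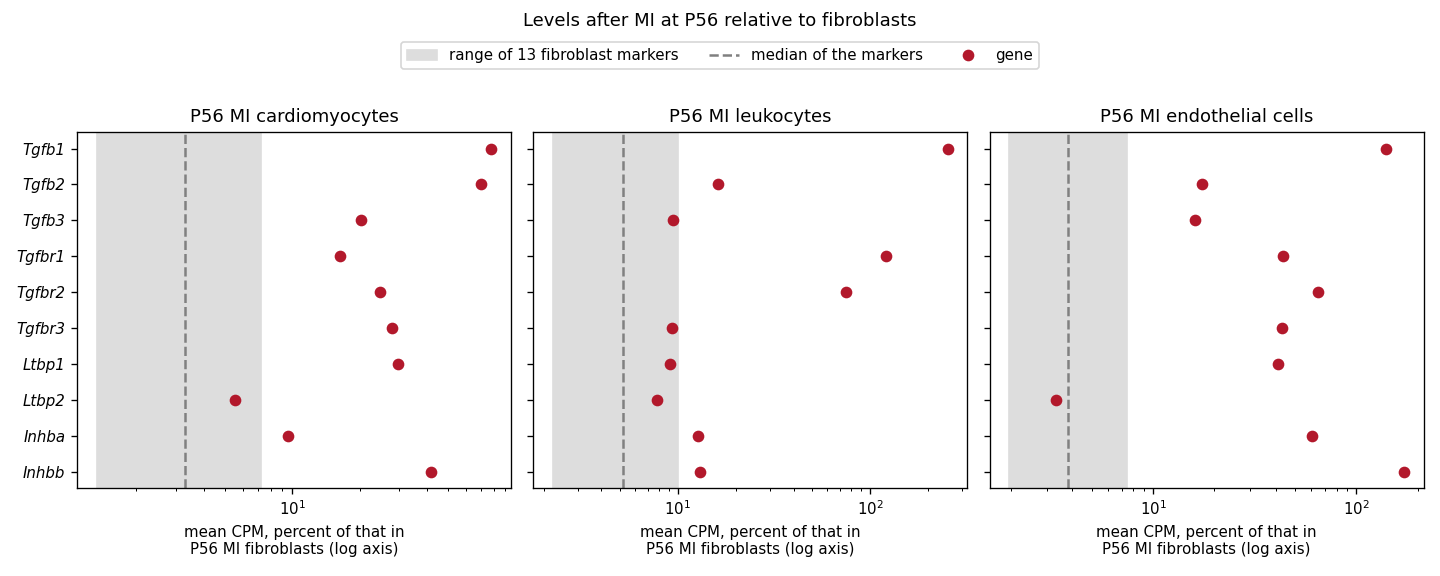
Mean CPM of each gene in P56 MI cardiomyocytes, leukocytes and endothelial cells as a percent of its mean in P56 MI fibroblasts (log axis), with the range (grey) and median (dashed) of the 13 fibroblast markers. Ltbp2 lies inside the range in all 3 panels, Tgfb3, Tgfbr3 and Ltbp1 lie inside it in leukocytes, and the other genes lie above it.

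Ltbp1 moved the other way in the adult populations in which it was called. It stood at 31.6, 31.8, 36.0 and 16.1 CPM in P56 MI leukocytes, against 80.0, 41.2, 46.7 and 57.9 CPM in P56 sham leukocytes (log2 fold change -0.97 ± 0.26, adjusted p = 0.00441). It stood at 40.1, 25.9, 39.9 and 22.8 CPM in P1 MI leukocytes, against 68.8, 78.5, 65.7 and 49.0 CPM in P1 sham leukocytes (log2 fold change -1.04 ± 0.26, adjusted p = 0.00419). The groups did not overlap at either age. In P56 fibroblasts it had 300.4, 478, 302 and 193 CPM after MI and 349.6, 452, 472 and 559 CPM after sham (log2 fold change -0.58 ± 0.21, adjusted p = 0.028), with MI library 2 inside the sham range. That call was lost without MI library 1, 3 or 4 or sham library 2, 3 or 4 (adjusted p of 0.0503 to 0.117), and without MI library 4 the change was -0.36. The difference between ages in fibroblasts (-0.85 ± 0.29, adjusted p = 0.0349) was likewise lost without any 1 of 11 of the 16 libraries, without the libraries over 5% 18S (0.0569) and under a replicate block (adjusted p = 0.054). In cardiomyocytes and endothelial cells Ltbp1 was called at neither age, though its changes in endothelial cells differed between ages without P56 MI library 2 (-0.53, adjusted p = 0.0379).

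Tgfb1 rose most in leukocytes. It stood at 81.1, 81.0, 62.0 and 99.5 CPM in P56 MI leukocytes, against 27.1, 34.2, 35.3 and 34.2 CPM in P56 sham leukocytes (log2 fold change 1.28 ± 0.16, adjusted p = 5.13e-06), with no overlap. At P1 it stood at 82.8, 94.3, 75.6 and 93.5 CPM after MI and 53.1, 48.9, 54.9 and 78.9 CPM after sham (log2 fold change 0.57 ± 0.16, adjusted p = 0.00734). Sham library 4, which was over 5% 18S, lay inside the MI range. The MI groups were thus at like levels and the adult change was the larger (difference 0.71 ± 0.22, adjusted p = 0.0153). The pan-leukocyte marker sums moved with it, at 4713 to 6113 CPM after MI and 1632 to 3103 CPM after sham at P56, and 4544 to 5540 and 1637 to 2429 CPM at P1. The cardiomyocyte marker sums were lower after MI, and the part of both was not tested.

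In adult fibroblasts Tgfb1 stood at 28.5, 19.0, 34.6 and 45.1 CPM after MI, against 10.7, 14.4, 15.999 and 13.3 CPM after sham (log2 fold change 1.14 ± 0.21, adjusted p = 0.000291). In adult endothelial cells it stood at 46.1, 38.2, 43.4 and 49.9 CPM after MI, against 32.2, 29.2, 35.5 and 34.8 CPM after sham (log2 fold change 0.42 ± 0.10, adjusted p = 0.00629). Neither pair of groups overlapped. Markers of other cells also differed between adult endothelial MI and sham libraries. Mural cell markers summed to 1468 to 2249 CPM after MI and 3277 to 4399 CPM after sham, cardiomyocyte markers to 3948 to 8699 and 9300 to 21141 CPM, and monocyte and macrophage markers to 167 to 374 and 62.4 to 90.3 CPM. Their part in the adult endothelial changes of Tgfb1, Tgfb3, Tgfbr2 and Inhbb was not tested. The difference between ages was not called in fibroblasts (0.71 ± 0.29, adjusted p = 0.0752) or endothelial cells (0.46 ± 0.14, adjusted p = 0.0647). It passed in fibroblasts without P56 MI library 2 (0.93, adjusted p = 0.00634) and in endothelial cells without P56 MI library 2 or P1 MI library 4 (0.53, adjusted p = 0.0179, and 0.51, adjusted p = 0.0448). In cardiomyocytes Tgfb1 was not called at either age, at 24.8 ± 5.16 CPM after MI and 20.2 ± 5.02 CPM after sham at P56.

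Tgfb2 rose in adult cardiomyocytes, where it stood at 38.2, 15.5, 47.8 and 39.2 CPM after MI, against 9.06, 10.8, 10.0 and 10.7 CPM after sham (log2 fold change 1.64 ± 0.25, adjusted p = 0.000236). All 4 MI libraries lay above the sham libraries, with MI library 2 the nearest to them. Its level there was 70.3% of that in P56 MI fibroblasts, above the 1.33 to 7.21% of the fibroblast markers. Leukocyte markers summed to 110 to 359 CPM in P56 MI and 17.4 to 78.4 CPM in P56 sham cardiomyocytes. Neutrophil markers summed to 57.1 to 478 and 6.42 to 23.4 CPM, and epicardial markers to 23.6 to 48.5 and 9.62 to 14.4 CPM. Endothelial markers were not higher, at 1167 to 1487 and 1283 to 2167 CPM. The part of other cells in the adult cardiomyocyte rises of Tgfb2, Tgfb3, Inhba and Inhbb was not tested. In neonatal cardiomyocytes Tgfb2 averaged 27.0 ± 1.32 CPM after MI and 22.0 ± 2.38 CPM after sham (log2 fold change 0.30 ± 0.25, adjusted p = 0.713). The difference between ages (1.34 ± 0.35, adjusted p = 0.0553) missed the threshold, but was called with edgeR (adjusted p = 0.0328) and at a pseudocount of 0.1 (0.0474). It was also called without P56 MI library 2 (1.69, adjusted p = 0.000174) or 3 (1.16, adjusted p = 0.0242), and without MI and sham libraries 3 (1.15, adjusted p = 0.0245). In adult fibroblasts, where Tgfb2 was highest, it averaged 50.0 ± 9.04 CPM after MI and 45.7 ± 3.62 CPM after sham and was not called (log2 fold change 0.11 ± 0.13, adjusted p = 0.472). In adult leukocytes it was lower (log2 fold change -0.65 ± 0.27, adjusted p = 0.0453), a call lost without MI library 2 or 4 or sham library 1 or 2 (adjusted p of 0.0733 to 0.179), with no filter (0.0504) and with edgeR (0.0568). The change was -0.33 without MI library 4.

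Tgfb3 rose in adult fibroblasts, at 130.3, 111, 197 and 125 CPM after MI, against 61.9, 94.2, 84.0 and 70.5 CPM after sham (log2 fold change 0.84 ± 0.16, adjusted p = 0.000361), without overlap. In adult cardiomyocytes it stood at 35.8, 18.9, 26.3 and 32.7 CPM after MI and 8.69, 17.9, 14.3 and 15.4 CPM after sham (log2 fold change 0.99 ± 0.24, adjusted p = 0.0114). These groups did not overlap either, though the call was lost without sham library 1 (0.79, adjusted p = 0.0508). In adult endothelial cells it fell, at 18.3, 24.2, 23.9 and 24.5 CPM after MI and 26.8, 27.9, 30.1 and 33.1 CPM after sham (log2 fold change -0.37 ± 0.13, adjusted p = 0.0475). That call was lost without MI library 1, 3 or 4 or sham library 2, 3 or 4 (adjusted p of 0.0579 to 0.158). No change of Tgfb3 was called at P1, where it averaged 121 ± 10.9 CPM in MI and 95.7 ± 8.71 CPM in sham fibroblasts. The difference between ages was not called, but passed in cardiomyocytes without P56 MI library 2 (1.23, adjusted p = 0.0379) or 3 (1.08, adjusted p = 0.0446) and without MI and sham libraries 3 (1.101, adjusted p = 0.042). It passed in fibroblasts without P56 MI library 2 (0.60, adjusted p = 0.0364). In endothelial cells it passed over all libraries with edgeR (-0.66, adjusted p = 0.0412) and with median-of-ratios scaling (-0.63, adjusted p = 0.0486). It also passed there without P56 MI library 2 (-0.65, adjusted p = 0.0369), without P1 MI or sham library 4 (adjusted p = 0.0187 and 0.0413) and without both (-0.80, adjusted p = 0.0105). In adult leukocytes Tgfb3 passed without MI library 4 (0.48, adjusted p = 0.0263).

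Among the receptors the co-receptor gene Tgfbr3 fell in adult fibroblasts and in leukocytes of both ages. It stood at 181, 315, 154 and 198 CPM in P56 MI fibroblasts, against 364, 445, 442 and 438 CPM in P56 sham fibroblasts (log2 fold change -1.04 ± 0.18, adjusted p = 0.000177). The groups did not overlap, and the change differed from that at P1 (-0.94 ± 0.25, adjusted p = 0.0105), where it averaged 89.7 ± 16.1 CPM after MI and 95.6 ± 11.7 CPM after sham. In leukocytes it stood at 20.6, 23.7, 22.1 and 13.1 CPM after MI and 73.4, 47.9, 55.9 and 51.9 CPM after sham at P56 (log2 fold change -1.52 ± 0.19, adjusted p = 5.28e-06). At P1 it stood at 25.7, 15.9, 26.0 and 20.1 CPM after MI and 50.5, 53.0, 50.6 and 47.1 CPM after sham (log2 fold change -1.21 ± 0.19, adjusted p = 7.68e-05). Neither age overlapped, and the leukocyte level after adult MI was 9.37% of that in fibroblasts, inside the 2.23 to 9.99% of the fibroblast markers. The summed cardiomyocyte markers were 5316 to 19476 CPM in P56 MI leukocytes and 76422 to 208860 CPM in P56 sham leukocytes, and 5740 to 15822 and 19661 to 25614 CPM at P1, moving with Tgfbr3 and Ltbp1. Mural cell markers moved the same way, at 153 to 413 CPM after MI and 1102 to 2018 CPM after sham at P56, and 266 to 523 and 1498 to 1885 CPM at P1. So did endothelial markers, at 210 to 323 CPM after MI and 490 to 717 CPM after sham at P56, and 547 to 1033 and 4286 to 5131 CPM at P1. The part of these 3 sums was not tested. In P56 sham leukocytes Tgfbr3 stood at 93.7% and Ltbp1 at 62.6% of their cardiomyocyte levels, where the 14 cardiomyocyte markers stood at 6.92 to 307% with a median of 21.8%.

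Tgfbr2 rose in adult endothelial cells, at 315, 268, 316 and 305 CPM after MI, against 196, 198, 216 and 212 CPM after sham (log2 fold change 0.54 ± 0.07, adjusted p = 0.00011), without overlap. In neonatal endothelial cells it averaged 384 ± 12.9 CPM after MI and 383 ± 28.9 CPM after sham, and the difference between ages was called (0.54 ± 0.10, adjusted p = 0.00912). The adult MI level thus lay between the adult sham and the neonatal levels. In adult cardiomyocytes Tgfbr2 stood at 111, 99.4, 111 and 138 CPM after MI and 40.8, 74.7, 112 and 62.5 CPM after sham and missed the threshold (log2 fold change 0.74 ± 0.24, adjusted p = 0.0545). It passed without sham library 3 (0.98, adjusted p = 0.00625), without MI library 2 (0.81, adjusted p = 0.0471) or 3 (0.76, adjusted p = 0.037), and without both libraries 3 (0.99, adjusted p = 0.00359). The difference between ages there (1.15 ± 0.33, adjusted p = 0.0888) was called without P56 sham library 3 (1.39, adjusted p = 0.0187), MI library 3 (1.17, adjusted p = 0.0313) or both (1.40, adjusted p = 0.00454). In fibroblasts and leukocytes Tgfbr2 was called at neither age, although in adult leukocytes the change without sham library 1 was -0.32 (adjusted p = 0.0151) and its difference from P1 -0.57 (adjusted p = 0.00414).

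Tgfbr1 rose in neonatal leukocytes, at 272, 303, 291 and 278 CPM after MI, against 203, 169.9, 193 and 207 CPM after sham (log2 fold change 0.57 ± 0.17, adjusted p = 0.0122), without overlap. In adult leukocytes it averaged 214 ± 59.6 CPM after MI and 169 ± 30.0 CPM after sham and was not called (log2 fold change 0.31 ± 0.17, adjusted p = 0.123), but was called without MI library 2 (0.49, adjusted p = 0.00799). In adult cardiomyocytes it stood at 14.2, 11.6, 67.9 and 22.0 CPM after MI, where library 3 lay far above the others, and 21.7, 33.5, 21.1 and 19.8 CPM after sham. There the change was -0.07 with all libraries, -0.60 without MI library 3 (adjusted p = 0.043) and -0.65 without both libraries 3 (adjusted p = 0.0366), and its difference from P1 without those was -0.91 (adjusted p = 0.0382) and -0.96 (adjusted p = 0.0286). In adult fibroblasts it was called without MI library 2 (0.31, adjusted p = 0.0339). In fibroblasts a small difference between the changes at the 2 ages was called (0.44 ± 0.16, adjusted p = 0.0487) and was lost under a replicate block (adjusted p = 0.0733), with edgeR (0.0604) and without any 1 of 12 of the 16 libraries.

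Inhba rose in adult fibroblasts, at 15.9, 6.32, 12.6 and 12.3 CPM after MI, against 3.75, 6.48, 5.24 and 3.90 CPM after sham (log2 fold change 1.16 ± 0.30, adjusted p = 0.00386), with MI library 2 inside the sham range. In neonatal fibroblasts it had 16.2, 10.3, 4.88 and 9.42 CPM after MI and 12.8, 10.9, 10.3 and 14.2 CPM after sham, and the difference between ages was called (1.49 ± 0.42, adjusted p = 0.013). Leukocytes had fitted changes of opposite sign at the 2 ages. They had 2.37, 0.560, 1.20 and 1.85 CPM after MI and 0.336, 0.629, 0.576 and 0.474 CPM after sham at P56 (log2 fold change 0.91 ± 0.30, adjusted p = 0.0155). At P1 they had 3.61, 2.32, 1.80 and 2.55 CPM after MI and 6.46, 3.06, 3.41 and 6.84 CPM after sham (log2 fold change -0.78 ± 0.30, adjusted p = 0.0422). The groups overlapped at both ages, and the difference was called (1.69 ± 0.42, adjusted p = 0.00432). The adult call was lost without MI library 1 (0.70, adjusted p = 0.0597), and the neonatal call without MI library 2, 3 or 4 or sham library 1 or 4 (adjusted p of 0.0731 to 0.132). Without the libraries over 5% 18S both calls were lost, at 0.70 in the adult (adjusted p = 0.0526) and -0.61 in the neonate (0.107). The neonatal call was also lost at a pseudocount of 0.1 (adjusted p = 0.0682). In adult cardiomyocytes Inhba had 2.15, 0.322, 1.27 and 0.781 CPM after MI and 0.248, 0.189, 0.238 and 0.421 CPM after sham (log2 fold change 0.95 ± 0.27, adjusted p = 0.0326). That call was lost without MI library 1 or 4 or sham library 1, 2 or 3 (adjusted p of 0.0503 to 0.135) and without both libraries 3 (0.054), and the change was 1.85 with edgeR. In adult endothelial cells it was called without MI library 2 (0.77, adjusted p = 0.0162). In neonatal endothelial cells Inhba averaged 5.83 ± 1.25 CPM after MI and 3.49 ± 0.681 CPM after sham, without overlap, and was not called.

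Inhbb in neonatal leukocytes had the largest fitted change after infarction of the 10 genes in any population. It stood at 6.56, 4.76, 2.37 and 4.29 CPM in P1 MI leukocytes, against 78.9, 50.0, 89.0 and 92.5 CPM in P1 sham leukocytes (log2 fold change -4.00 ± 0.26, adjusted p = 2.39e-08). Every sham library lay far above every MI library. At P56 the leukocytes averaged 3.00 ± 0.497 CPM after MI and 2.26 ± 0.800 CPM after sham, so the P1 sham group alone was high, and the difference between ages was 4.37 ± 0.37, adjusted p = 7.26e-07. Other cells' markers were also higher in P1 sham than in P1 MI leukocytes, with endothelial sums of 547 to 1033 CPM after MI and 4286 to 5131 CPM after sham, and mural cell sums of 266 to 523 and 1498 to 1885 CPM. Erythroid markers summed to 58.0 to 114 CPM in P1 MI and 529 to 787 CPM in P1 sham leukocytes, and to 23.2 to 28.4 and 4.31 to 39.0 CPM in the P56 MI and sham groups, so P1 sham was the highest group there too. The level of Inhbb in P1 sham leukocytes was 422% of that in P1 sham endothelial cells, where the 14 endothelial markers stood at 22.6 to 109%, and 1102% and 1326% of that in fibroblasts and cardiomyocytes. Among leukocyte classes, the monocyte and macrophage markers summed to 10625 to 12825 CPM after MI and 3703 to 4660 CPM after sham, and the neutrophil markers to 2344 to 3344 and 1748 to 3517 CPM. The part of these other cells and of the mix of leukocytes in the change of Inhbb was not tested.

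In adult hearts Inhbb fell in fibroblasts, at 23.0, 32.8, 16.2 and 20.4 CPM after MI, against 64.7, 49.1, 33.6 and 34.3 CPM after sham (log2 fold change -0.95 ± 0.27, adjusted p = 0.00783), without overlap. In neonatal fibroblasts it averaged 10.9 ± 1.93 CPM after MI and 7.04 ± 3.12 CPM after sham, and the difference between ages was called (-1.62 ± 0.38, adjusted p = 0.00482). With Inhba rising, the share of Inhba in the summed activin subunit CPM per kb was 52.2 ± 15.3% in P56 MI fibroblasts and 19.7 ± 6.08% in P56 sham fibroblasts. Inhbb rose in adult endothelial cells, at 61.9, 12.3, 33.1 and 51.2 CPM after MI and 14.8, 6.41, 8.25 and 9.44 CPM after sham (log2 fold change 1.81 ± 0.41, adjusted p = 0.00566), with MI library 2 inside the sham range. In neonatal endothelial cells it averaged 38.9 ± 13.8 CPM after MI and 18.4 ± 5.55 CPM after sham. Neither that change nor the difference between ages was called. In adult cardiomyocytes it stood at 12.2, 3.87, 8.60 and 14.1 CPM after MI and 2.98, 2.17, 2.50 and 1.89 CPM after sham (log2 fold change 1.70 ± 0.39, adjusted p = 0.00746), again without overlap. Its cardiomyocyte level after MI was 24.5% of that in P56 MI endothelial cells, just above the 4.42 to 23.0% of the 14 endothelial markers, whose sums were 1167 to 1487 CPM in MI and 1283 to 2167 CPM in sham cardiomyocytes.

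Other genes of the pathway, taken from lists chosen by function, were counted beside the members. Of 16 genes described as TGF-beta targets, such as collagens and Acta2, 13 rose and 0 fell in cardiomyocytes after adult MI, 14 and 0 in fibroblasts, 11 and 1 in leukocytes and 15 and 0 in endothelial cells. Their median log2 fold changes were 2.74, 3.12, 2.66 and 1.34. Of all genes 8.66% rose and 1.03% fell in cardiomyocytes after adult MI, 24.8% and 25.2% in fibroblasts, 30.7% and 28.8% in leukocytes and 12.5% and 7.88% in endothelial cells, which is the background for all the lists below at P56. After neonatal MI the counts were 0 and 0 in cardiomyocytes, 3 and 0 in fibroblasts, 4 and 5 in leukocytes and 0 and 0 in endothelial cells, with medians of 0.19, 0.37, -0.09 and 0.88. The background there was 0.285% higher and 0.0582% lower, 1.99% and 0.375%, 22.6% and 22.6%, and 0.0891% and 0.127% of all genes in the same populations. The adult change was the larger for 10, 13, 11 and 4 of the 16 genes in cardiomyocytes, fibroblasts, leukocytes and endothelial cells and the smaller for 0, 1, 0 and 0, where 1.75%, 31.7%, 45.2% and 5.41% of all genes were called in either direction. Between adult and neonatal sham hearts 13, 12, 14 and 12 of the 16 were lower in cardiomyocytes, fibroblasts, leukocytes and endothelial cells, and 1, 3, 1 and 3 were higher. Of all genes 37.0%, 32.2%, 34.5% and 29.3% were lower and 33.3%, 34.8%, 32.5% and 33.6% higher. Col1a1, Col1a2 and Col3a1 of this list are also among the 13 fibroblast markers, whose sums are given above. The part of fibroblast RNA in the counts of the other populations was not tested.

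In adult fibroblasts Tagln, the actin-binding protein transgelin of contractile cells, averaged 168 ± 54.0 CPM after MI and 9.07 ± 1.11 CPM after sham (log2 fold change 4.08 ± 0.19, adjusted p = 3.37e-10). Acta2, the smooth muscle actin that marks myofibroblasts, averaged 443 ± 155 CPM and 12.9 ± 2.46 CPM (log2 fold change 4.99 ± 0.22, adjusted p = 1.65e-10). In neonatal fibroblasts the 3 targets that rose were Tgfbi, Tagln and Ctgf. Tgfbi, a matrix protein named for its induction by TGF-beta, averaged 32.8 ± 1.96 CPM after MI and 13.7 ± 1.84 CPM after sham (log2 fold change 1.23 ± 0.12, adjusted p = 5.82e-05).

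Of the genes of latency and activation, 4 of 13 tested rose and 0 fell in cardiomyocytes after adult MI, 5 and 1 of 12 in fibroblasts, 7 and 3 of 13 in leukocytes and 6 and 1 of 13 in endothelial cells. Thbs1, thrombospondin 1, which can activate latent TGF-beta, rose in all 4 populations. It averaged 70.2 ± 33.2 CPM in MI and 3.96 ± 1.85 CPM in sham cardiomyocytes (log2 fold change 3.87 ± 0.41, adjusted p = 1.28e-05). In fibroblasts Thbs1 averaged 1053 ± 524 and 174 ± 59.7 CPM (log2 fold change 2.48 ± 0.32, adjusted p = 1.08e-05) and in leukocytes 934 ± 462 and 11.042 ± 2.24 CPM (log2 fold change 6.23 ± 0.31, adjusted p = 1.59e-09). In endothelial cells it averaged 74.0 ± 29.4 and 11.4 ± 4.42 CPM (log2 fold change 2.61 ± 0.37, adjusted p = 0.000149). Ltbp4, a further latent TGF-beta binding protein, fell in fibroblasts, at 614 ± 115 CPM after MI and 1453 ± 264 CPM after sham (log2 fold change -1.24 ± 0.20, adjusted p = 0.000106).

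Of the inhibitors of the pathway, 2 of 8 tested rose after adult MI and 0 fell in cardiomyocytes, 5 and 1 of 8 in fibroblasts, 4 and 2 of 8 in leukocytes and 4 and 0 of 7 in endothelial cells. Cd109, a membrane co-receptor that restrains TGF-beta signalling, averaged 36.5 ± 12.6 CPM in MI and 4.14 ± 0.474 CPM in sham fibroblasts (log2 fold change 2.93 ± 0.19, adjusted p = 1.17e-08). Fstl3, a secreted protein that binds activin, averaged 11.5 ± 3.63 and 4.65 ± 0.721 CPM there (log2 fold change 1.18 ± 0.19, adjusted p = 9.50e-05). Dcn, decorin, a matrix proteoglycan that binds TGF-beta and is also a fibroblast marker here, fell, at 5770.4 ± 1555 CPM after MI and 13176 ± 1217 CPM after sham (log2 fold change -1.22 ± 0.21, adjusted p = 0.00018).

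Of 13 SMAD proteins and partners, 1 rose and 0 fell in cardiomyocytes after adult MI, 3 and 2 in fibroblasts, 3 and 4 in leukocytes and 1 and 0 in endothelial cells, with medians of -0.03, 0.15, 0.02 and 0.03. Smad3, the transducer most tied to fibrosis, averaged 89.0 ± 15.4 CPM in MI and 129.8 ± 8.73 CPM in sham fibroblasts (log2 fold change -0.55 ± 0.14, adjusted p = 0.0032). Of 6 other receptors and co-receptors tested, 0, 1, 1 and 0 rose and 0, 1, 2 and 1 fell in cardiomyocytes, fibroblasts, leukocytes and endothelial cells. Of the other ligands of the family, Inha, the inhibin alpha subunit, averaged 2.94 ± 0.969 CPM in MI and 4.98 ± 0.499 CPM in sham fibroblasts (log2 fold change -0.71 ± 0.18, adjusted p = 0.00337).

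Across the 16 group means of log2(CPM + 0.5), the pair of members closest in pattern was Tgfbr3 and Ltbp1 (Pearson's r = 0.880), followed by Tgfb2 and Tgfb3 (0.837) and Tgfb3 and Ltbp2 (0.808), and the most opposed pair was Tgfb1 and Tgfb2 (-0.689). These are descriptions over 16 groups that share libraries between genes and that differ in population, age and operation at once. Of all genes at 1 CPM or more in 4 of the 64 libraries, the 3 whose pattern was most like that of each ligand gene were Rhbdf2 (0.924), Rnf111 (0.910) and Ddx41 (0.910) for Tgfb1, Igsf3 (0.971), Shisa4 (0.947) and Fasn (0.937) for Tgfb2, and Ptgfrn (0.961), Figf (0.958) and Evc2 (0.958) for Tgfb3. For the binding proteins they were Vwa1 (0.915), Lsamp (0.899) and Fam188b (0.897) for Ltbp1 and Loxl3 (0.959), Bnc2 (0.940) and Tmed3 (0.936) for Ltbp2. For the receptors they were Dock11 (0.960), Acsl4 (0.944) and Rab8b (0.941) for Tgfbr1, Il3ra (0.945), Fbxl19 (0.944) and Eif4g3 (0.937) for Tgfbr2, and Fam124a (0.959), Micu3 (0.957) and Pdzd7 (0.943) for Tgfbr3. For the activin subunits they were Cald1 (0.964), Vcam1 (0.960) and Rpl21 (0.944) for Inhba and Ackr1 (0.870), Mast4 (0.852) and Osmr (0.844) for Inhbb, the least closely matched of the 10.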

How the data were processed

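Total RNA of each library was depleted of ribosomal RNA (Ribo-Zero Gold) and prepared with the TruSeq Stranded Total RNA kit, and 50-base single-end reads were sequenced on a HiSeq instrument, per the labels' protocols. Trimmomatic, STAR, HTSeq and edgeR are the tools in the submitters' processing notes, which also list mm10, GRCm38 and GRCh38 as builds with no role, while the versions and the strand setting of counting are not given in the sources used here. The authors deposited a signal per gene, named CPM in the labels, which is CPM over an effective library size, so the columns sum to 776590 at the lowest and 2627500 at the highest. All values (100%, within 0.01) were whole multiples of the value of 1 read, which gave back the whole reads. ATAC-seq libraries of the study were not analysed here.

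The main test was limma 3.58.1 (R 4.3.3) with a trend, on log2(CPM + 0.5) of genes at 1 CPM or more in 4 libraries, fitted within each population over its 16 libraries (15461 to 16239 genes tested) and over the 32 sham libraries between populations. P-values were adjusted by Benjamini-Hochberg over all genes tested, at a threshold of 0.05. The test recovered known changes in counts simulated for fibroblasts and leukocytes, with the same spread for every gene. The other populations were not simulated, and the real libraries may vary more than the simulated ones. Named genes outside the 10 were, in each list and comparison, up to 3 called genes of smallest adjusted p, and those of like pattern the 3 of highest r, from lists of which 189 of 195 symbols were found. The members and lists were chosen with earlier results of these data known. Samples with the same replicate number were checked for shared deviations from the group means. In 0 of 8 MI comparisons and 0 of 4 age comparisons did every pair correlate above 0.1, so the numbers were not taken as pairs there. In 6 of 12 population comparisons every pair did, all 6 at P56 (correlations of -0.14 to 0.45 over all 48 pairs), and there the block changed no call. No replicate libraries were identical. Alternatives were other pseudocounts, filters and scaling, a replicate block, edgeR 4.0.16 on the recovered reads, and leaving out libraries. Protein sequences are not shown. Intervals other than the SD and SE of libraries were not computed.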

Additional observations from a re-analysis of the deposited data

Results flagged for a closer look

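In 10 of 160 groups of 4 libraries the highest or lowest library lay farther from the rest than the 95% critical value of Dixon's test, and chance flags about 1 in 20 groups. Tgfb1 was 27.06 CPM in P56 sham leukocyte library 1, below the rest. Tgfb2 was 16.64 CPM in P1 MI endothelial library 3 and Tgfb3 18.29 CPM in P56 MI endothelial library 1. Tgfbr1 was 33.5 CPM in P56 sham cardiomyocyte library 2. Tgfbr2 was 415.7 CPM in P56 MI leukocyte library 2, 267.8 CPM in P56 sham leukocyte library 1, 252.9 CPM in P1 sham leukocyte library 2 and 329.3 CPM in P1 sham fibroblast library 4. Tgfbr3 was 363.8 CPM in P56 sham fibroblast library 1, and Inhba 3.635 CPM in P1 sham cardiomyocyte library 2, a library over 5% 18S.

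The change after MI differed between P56 and P1 by the test of that difference for 12 gene and population pairs, given as the P56 change minus the P1 change (log2). In cardiomyocytes this was Ltbp2 (2.658). In fibroblasts it was Inhba (1.491), Ltbp2 (1.258), Tgfbr1 (0.4424), Ltbp1 (-0.8523), Tgfbr3 (-0.9407) and Inhbb (-1.616). In leukocytes it was Inhbb (4.373), Ltbp2 (2.139), Inhba (1.688) and Tgfb1 (0.7129), and in endothelial cells Tgfbr2 (0.5388). P56 and P1 hearts also differed in isolation and, in part, sex, which cannot be told apart from age.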

How the results depend on the processing

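Of 280 tests of the 10 genes, 164 were called. Of these, 148 held in every setting in which the gene was tested, and 0 reversed. Of the 116 that were not called, 85 stayed so in every such setting and 31 were called in at least 1. At the filter of 5 CPM Inhba was not tested in cardiomyocytes or leukocytes, so its calls there were not tried at that setting. The count of members whose MI change differed between ages in cardiomyocytes was 1, but 2 at a pseudocount of 0.1, 2 with edgeR, 0 without the libraries over 5% 18S, 5 without the P56 cardiomyocyte libraries 3 and P1 endothelial libraries 4, and 0 to 5 without single libraries. In endothelial cells it was 1, but 2 with median-of-ratios scaling, 2 with edgeR, 2 without those 4 libraries and 1 to 4 without single libraries. The count after MI at P56 in cardiomyocytes was 5, but 3 without the libraries over 5% 18S and 3 to 7 without single libraries, and after MI at P1 in endothelial cells 0, but 1 without those 4 libraries and 0 to 1 without single libraries. A replicate block, whose numbers were not shown to pair the MI and sham libraries, lost 4 calls: Inhba after MI at P56 in cardiomyocytes (adjusted p = 0.0589), Tgfb3 after MI at P56 in endothelial cells (0.0797), and the difference between ages of Tgfbr1 (0.0733) and Ltbp1 (0.054) in fibroblasts. Over all genes the count after MI at P1 in cardiomyocytes was 53, but 16 and 95 at pseudocounts of 0.1 and 1, 168 with no filter, 15 at 5 CPM, 27 with the block, 21 with edgeR, 129 without the libraries over 5% 18S and 219 without those 4 libraries. In endothelial cells it was 34, but 22 and 62 at the 2 pseudocounts, 1 with the block and 449 without those 4 libraries, and in fibroblasts 372, but 194 at 5 CPM and 644 without the libraries over 5% 18S. In cardiomyocytes the count after MI at P56 was 1498, but 4592 without those 4 libraries, and for the difference between ages 270, but 170 with the block and 3458 without those libraries. Median-of-ratios scaling moved the share of higher calls after MI at P56 in cardiomyocytes to 76.4%, from 89.4%, and the median of all genes to -0.02, from 0.08. The change of Inhba at P56 in leukocytes was 0.91 and 1.49 with edgeR, and in cardiomyocytes 0.95 and 1.85 with edgeR. In P56 sham cardiomyocytes Inhba was under the value of 3 reads, 0.102 to 0.409 CPM over all libraries, in 3 of 4 libraries. The causes of these shifts were not tested.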

Other observations

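One library number stood nearest to sham after adult MI in several populations, a pattern seen after the values were known. Of the 4 P56 MI libraries, library 2 was the nearest to the sham mean of log2(CPM + 0.5) for 5 of 5 called genes of the 10 in cardiomyocytes, 7 of 7 in fibroblasts and 4 of 5 in endothelial cells, against 2 of 6 in leukocytes. For the 16 TGF-beta target genes it was nearest for 13 in cardiomyocytes, 12 in fibroblasts, 11 in endothelial cells and 3 in leukocytes. Ltbp2, for example, stood at 256 CPM in P56 MI fibroblast library 2, against 544 to 697 CPM in the other MI libraries. Without library 2 of the population the number of the 10 genes called after adult MI was 6 in cardiomyocytes, 8 in fibroblasts and 6 in endothelial cells, against 5, 7 and 5 with it. Neither the nearest library nor these counts are given over all genes. Whether the pattern is particular to the genes of this pathway was not tested. The labels do not say whether libraries of the same number came from the same hearts.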
